A study of Homo sapiens with 6 samples.

Results

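The transcriptomes of HCT116 cells given either of a pair of siRNAs against the long noncoding RNA LINC01534 were compared directly with each other. The 2 libraries labelled siLINC01534-1 were set against the 2 libraries labelled siLINC01534-2, of 6 libraries in all. Of 26255 genes, 12203 had an FPKM that averaged 1 or more over the 6 libraries and were fitted. FPKM scales the reads of a gene to the length of its transcripts and to the reads of the library. The 226 short RNA genes left with symbols starting with MIR, SNORD, SNORA, SCARNA or RNU were set aside, because a single read can give them a high FPKM. The comparison therefore covered 11977 genes. Short RNA genes with other symbols, such as VTRNA1-2 and RNVU1-20, stayed among them. HCT116 is a human colorectal cancer cell line, and poly(A) RNA of its cells was sequenced to learn what silencing of LINC01534 changes. The third group was parent HCT116 cells, which the labels and methods do not describe as transfected. Both siRNA groups were given siRNA with Lipofectamine RNAiMax, so transfection is shared by the groups compared here, while it is not known to be shared with the parent cells. No library with a negative control siRNA was used here. The siRNA dose and the time between transfection and RNA extraction are not given in the sources used here. The labels give 2 replicates per group and do not say whether they came from separate cultures, so that p-values measure the spread between these libraries only.

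An siRNA is a short RNA duplex. Its antisense strand is loaded into an Argonaute protein and guides the cleavage of RNA to which it pairs along its whole length. The same strand can also act as a microRNA does, by pairing through the bases near its 5′ end, the seed, with sites in the 3′ UTRs of other mRNAs, which lowers the level of these mRNAs. Because siRNAs against the same RNA share the target and not the seed, they are commonly used side by side.

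Both siRNAs pair with the noncoding transcript of LINC01534, listed as ZNF567-DT in the GENCODE annotation, in exons shared by all 6 annotated transcripts. The sites are shown here because their last bases are the seed match discussed with the results. They are read from GRCh37 on the minus strand of chromosome 19, 5′ to 3′ along the transcript, at chr19:37177640-37177658 for siLINC01534-1 and at chr19:37177588-37177606 for siLINC01534-2. Capitals mark the 7 bases that pair with bases 2 to 8 of the antisense strand.
siLINC01534-1: atcgagtggtgGAATAAAa
siLINC01534-2: gaacgaggcttTTCGAGTt
The match of siLINC01534-1 contains AATAAA, the common polyadenylation signal that lies near the end of most mRNAs.

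LINC01534 itself was examined first. Its FPKM was 0 and 0.283 with siLINC01534-1 and 0.660 and 0.551 with siLINC01534-2, beside 0.285 and 0.571 in parent cells. If its smallest FPKM above 0 is taken as 1 read, no library held more than 2 reads of it, and those of siLINC01534-1 held 0 and 1. That value could also stand for more than 1 read. A difference between the siRNAs was not detectable at this depth. With so few reads these values cannot show whether either siRNA lowered the target from parent cells, so the groups are called by their labels. By qRT-PCR the authors report less LINC01534 with each siRNA than with a negative control siRNA. ZNF567, the zinc finger gene that starts next to LINC01534 on the other strand, had an FPKM of 3.86 and 3.21 with siLINC01534-1 and of 3.15 and 3.29 with siLINC01534-2. Its libraries overlapped, with a log2 difference of 0.10 (95% interval -0.20 to 0.40). Of the 15 zinc finger genes and noncoding RNAs listed around LINC01534, 4 reached the FPKM minimum and 0 differed between the siRNAs at an adjusted p under 0.05 with limma, as at an unadjusted p under 0.05.

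Estimated from low FPKM values, which move in steps of 1 read, the depth was 8670000 to 10400000 reads per library, with 16513 to 16903 genes above 0. The epithelial marker EPCAM was at 199 to 204 in the 6 libraries, whereas the intestinal markers CDH17 and VIL1 were at 0.0656 or below. The summed FPKM of the 8 epithelial markers was 3010 and 3020 with siLINC01534-1, 3640 and 3460 with siLINC01534-2 and 3560 and 3630 in parent cells. The 6 fibroblast markers summed to 5.36 to 6.08 with siLINC01534-1 and 3.85 to 4.33 with siLINC01534-2, nearly all of it COL1A1, and DCN and LUM were at 0 in every library. The 5 immune markers summed to 4.44 and 5.04 with siLINC01534-1 and to 7.87 and 7.20 with siLINC01534-2, mostly CD68, and CD3E was at 0 in every library. The 4 endothelial markers summed to between 0.0690 and 0.148. The part of these markers in the results was not tested.

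The siRNAs differed widely but mostly by little. With limma on log2(FPKM + 1), 5072 of the 11977 genes (42.3%) differed between the siRNAs at an adjusted p under 0.05. Of these, 2361 (19.7% of all genes) were higher and 2711 (22.6%) were lower with siLINC01534-1 than with siLINC01534-2. The median size of these differences was 0.389 on the log2 scale, and 3953 of the 5072 genes (77.9%) differed by less than 1.5-fold. Over all 11977 genes the median difference was 6e-04, with quartiles of -0.21 and 0.20. In 8917 genes (74.5%) the libraries of the siRNAs did not overlap, 4433 with siLINC01534-1 above and 4484 with it below. A test for differences of more than 1.5-fold (treat, limma) called 259 genes, and the libraries did not overlap in any of the 259. Of these, 60 genes (0.501%) were higher and 199 genes (1.66%) were lower with siLINC01534-1. Without any 1 of the 6 libraries the 259 genes became 108 to 168, and the 5072 genes became 3310 or 3165 without the first or second siLINC01534-1 library and 3352 without the first siLINC01534-2 library.

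**Figure D1:**
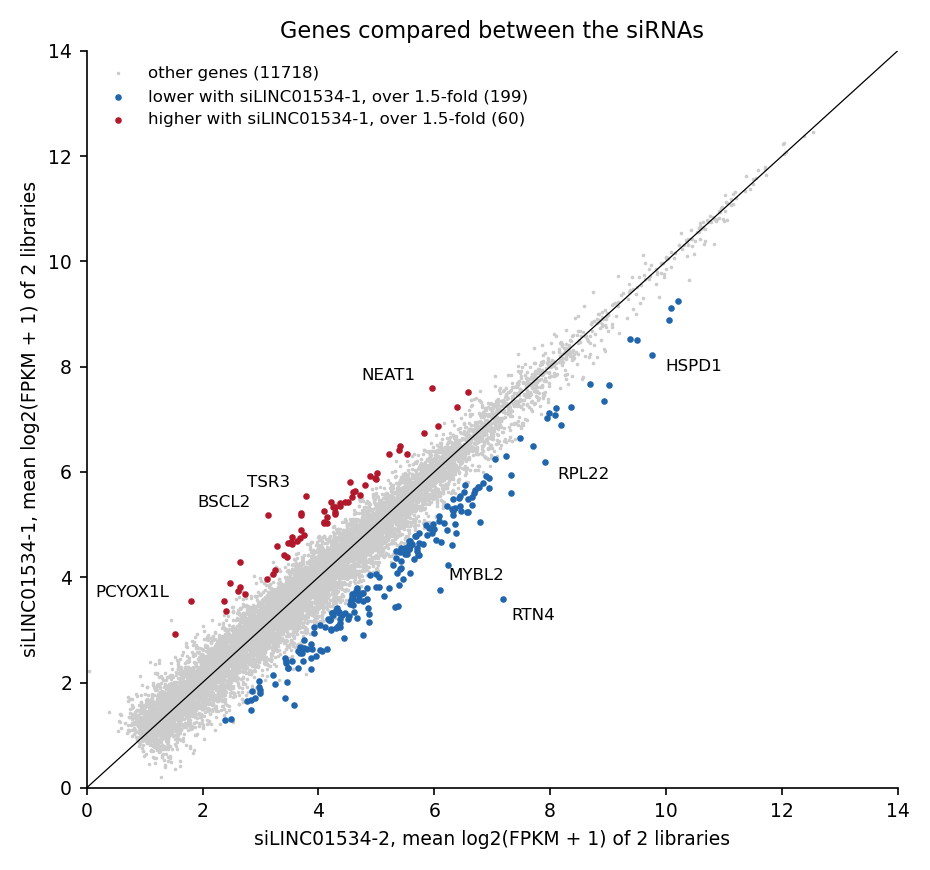
Mean log2(FPKM + 1) of the 2 siLINC01534-1 libraries (vertical axis) against that of the 2 siLINC01534-2 libraries (horizontal axis) for 11977 genes, 1 point per gene, with the line of equal values. Most genes lie along the line. The 199 genes in blue are lower and the 60 genes in red are higher with siLINC01534-1 by more than 1.5-fold, and RTN4 lies farthest below the line.

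RTN4, a reticulon that shapes the tubules of the endoplasmic reticulum (ER), differed most. Its FPKM was 11.9 and 10.2 with siLINC01534-1, 147 and 143 with siLINC01534-2, and 133 and 128 in parent cells. The siLINC01534-1 libraries were far below the other 4, which lay close together. RTN4 was thus 13.1-fold lower with siLINC01534-1 than with siLINC01534-2 (log2 difference -3.60, SE 0.073, adjusted p = 2.3e-05). It lies on the minus strand of chromosome 2 of GRCh37, from 55199323 to 55339757.

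MYBL2, which encodes the transcription factor B-Myb that switches on mitotic genes, had an FPKM of 12.2 and 12.7 with siLINC01534-1, 68.6 and 66.5 with siLINC01534-2, and 65.1 and 68.8 in parent cells. Again the siLINC01534-1 libraries stood apart and those of siLINC01534-2 overlapped parent cells. The log2 difference was -2.35 (SE 0.046, adjusted p = 2.2e-05). AMZ2, a metallopeptidase gene, was at 18.4 and 17.1 with siLINC01534-1 and at 71.1 and 77.6 with siLINC01534-2, a log2 difference of -2 (SE 0.058). Its parent libraries, at 76.0 and 77.2, lay within the range of siLINC01534-2.

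TOB1, an antiproliferative protein that recruits the deadenylase complex to mRNAs, had an FPKM of 10.5 and 9.37 with siLINC01534-1, 40.5 in both siLINC01534-2 libraries, and 35.8 and 33.5 in parent cells. PARL, a rhomboid protease of the mitochondrial inner membrane, was at 10.3 and 9.47 with siLINC01534-1, 43.3 and 35.1 with siLINC01534-2, and 36.0 and 41.1 in parent cells. Both genes were about as high with siLINC01534-2 as in parent cells and fell to near 10 with siLINC01534-1, with log2 differences between the siRNAs of -1.93 (SE 0.065) and -1.88 (SE 0.12). RPL22, a protein of the large ribosomal subunit, was at 73.6 and 70.2 with siLINC01534-1, 243 and 235 with siLINC01534-2, and 234 and 230 in parent cells (log2 difference -1.72, SE 0.038). Also among the 12 genes with the largest decreases were TMEM109 (-1.87), a membrane protein of the ER, DAZAP2 (-1.75), PCBD1 (-1.74), an enzyme that recycles the tetrahydrobiopterin cofactor, NCS1 (-1.73), a calcium sensor, and COMMD7 (-1.72). RPL22 has near-identical pseudogenes, among which the counting could have divided reads.

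The genes with the largest differences in the other direction were of mixed kinds. BSCL2, which encodes the lipid droplet protein seipin, had an FPKM of 32.6 and 38.2 with siLINC01534-1, 9.04 and 6.65 with siLINC01534-2, and 6.98 and 11.8 in parent cells. The siLINC01534-1 libraries were above the other 4, with a log2 difference between the siRNAs of 2.05 and the widest error of these genes (SE 0.25, adjusted p = 0.0024). BSCL2 shares exons with a read-through transcript, so its reads could have been divided in counting. NEAT1, the noncoding RNA that builds paraspeckles, was at 196 and 187 with siLINC01534-1, 59.6 and 63.7 with siLINC01534-2, and 64.4 and 62.5 in parent cells (log2 difference 1.62, SE 0.047). For NEAT1, as for BSCL2, siLINC01534-2 did not separate from parent cells.

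In other genes it was siLINC01534-2 that stood apart. TSR3, an enzyme that modifies ribosomal RNA, had an FPKM of 47.6 and 44.3 with siLINC01534-1, 13.3 and 12.2 with siLINC01534-2, and 56.6 and 60.6 in parent cells. Its log2 difference from parent cells was -0.34 with siLINC01534-1 and -2.11 with siLINC01534-2. ZC3H13, a component of the complex that places m6A on RNA, was at 18.8 and 18.4 with siLINC01534-1, 5.17 and 5.34 with siLINC01534-2, and 21.4 and 21.7 in parent cells. HEBP2 (1.52 between the siRNAs), a heme-binding protein, HIST1H2BK (1.48), a histone H2B, SLC25A43 (1.39), a mitochondrial carrier, KLHDC3 (1.26), which selects substrates for a ubiquitin ligase, and ACO1 (1.23), which is also iron regulatory protein 1, were lower by -1 to -1.47 with siLINC01534-2 than in parent cells and within -0.08 to 0.25 of it with siLINC01534-1. HIST1H2BK belongs to a family of near-identical genes. PCYOX1L moved away from parent cells in both directions, with 10.9 and 10.5 with siLINC01534-1, 2.30 and 2.66 with siLINC01534-2, and 6.62 and 7.61 in parent cells. ARRDC4, an arrestin domain protein, was at 14 and 13.5 with siLINC01534-1, 4.18 and 4.95 with siLINC01534-2, and 1.46 and 1.51 in parent cells, so it was above parent with both siRNAs and highest with siLINC01534-1. FAM219A (1.31) was higher with siLINC01534-1 than in the other 4 libraries.

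**Figure D2:**
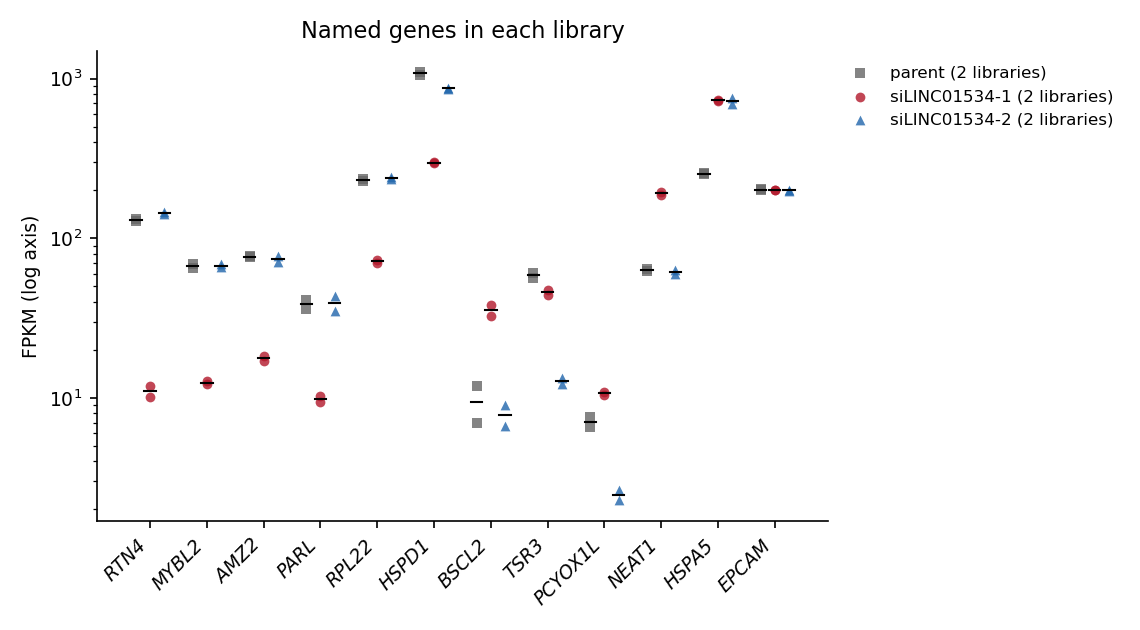
FPKM on a log axis of 12 genes in each library, with squares for parent cells, circles for siLINC01534-1, triangles for siLINC01534-2, and a line at the mean of 2 libraries. From RTN4 to HSPD1 the siLINC01534-1 circles lie below the other groups, TSR3 is lowest with siLINC01534-2, HSPA5 is about equal with both siRNAs and above parent, and EPCAM is level.

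Set beside parent cells, the groups of genes lay differently. Parent cells are the shared control of these values, so they are given side by side. Against parent cells, 5624 of the 11977 genes (47.0%) passed the threshold with siLINC01534-1 and 2773 (23.2%) with siLINC01534-2. The 199 genes that were lower with siLINC01534-1 by more than 1.5-fold had a median log2 difference from parent cells of -1.09 with siLINC01534-1 and of 0.0272 with siLINC01534-2. All 199 were below parent cells with siLINC01534-1, and 193 of them were farther from parent with siLINC01534-1 than with siLINC01534-2. The 60 higher genes had medians of 0.720 and -0.257, and 37 were farther from parent with siLINC01534-1 and 23 with siLINC01534-2. Of these 60 genes, 50 were above parent with siLINC01534-1 and 43 were below parent with siLINC01534-2.

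The 3′ UTRs were searched for the seed match of each siRNA on the mRNA strand, in the longest coding transcript of each gene. A 3′ UTR was annotated for 11120 of the 11977 genes (92.8%). The match of siLINC01534-1, GAATAAA, was present in 2974 of them (26.7%), and that of siLINC01534-2, TTCGAGT, in 216 (1.94%). Among genes lower with siLINC01534-1, 1167 of 2634 (44.3%) held GAATAAA, against 331 of 2214 genes that were higher (15.0%) and 1476 of 6272 genes past no threshold (23.5%). Of the 198 genes with a 3′ UTR that were lower by more than 1.5-fold, 161 (81.3%) held it, as did 8 of the 57 genes that were higher by more than 1.5-fold (14%). The match was thus more frequent the lower the genes were with siLINC01534-1. No test was made on these shares, since genes are not replicates.

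Seen from the genes with the match, the median log2 difference between the siRNAs was -0.13 with GAATAAA and 0.03 without it. The gap between these medians was -0.165, and -0.070 without the filter on low values. Against parent cells the medians with and without it were -0.14 and 0.03 with siLINC01534-1, and 0.01 and 0.00 with siLINC01534-2. Of the genes with the match, 39.2% were lower and 11.1% higher with siLINC01534-1, and of those without it 18.0% were lower and 23.1% higher. The median was lower with more matches in the 3′ UTR, going from 0.03 in the 8146 genes with 0 matches to -0.12 in the 2294 genes with 1, -0.18 in the 491 genes with 2 and -0.19 in the 189 genes with 3 or more.

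For the antisense strand of siLINC01534-2 the shares lay closer together. TTCGAGT was in 1.81% of the genes that were higher with siLINC01534-1, that is, lower with siLINC01534-2, and in 2.28% of those lower with siLINC01534-1. Of the genes with TTCGAGT, 27.8% were lower and 18.5% higher with siLINC01534-1, against 23.6% and 19.9% of those without it. The median difference was -0.03 with it and -0.01 without it, and the median from parent cells with siLINC01534-2 was 0.00 in both. It was found in 0 of the 11 genes with a 3′ UTR among the 12 that were highest with siLINC01534-1. The sense strands can also be loaded. CACTCGA, the match of the sense strand of siLINC01534-1, was in 195 genes, with a median difference of -0.10. It was in 2.51% of the lower, 1.69% of the uncalled and 1.04% of the higher genes. CCTCGTT, that of siLINC01534-2, was in 341 genes, with a median of 0.04. It was in 4.29% of the genes higher with siLINC01534-1, 2.95% of the uncalled and 2.32% of the lower genes. Of the genes with CCTCGTT, 27.9% were higher, against 19.7% of those without it. Beyond 1.5-fold it was in 3 of 57 higher genes (5.26%) and 2 of 198 lower genes (1.01%).

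**Figure D3:**
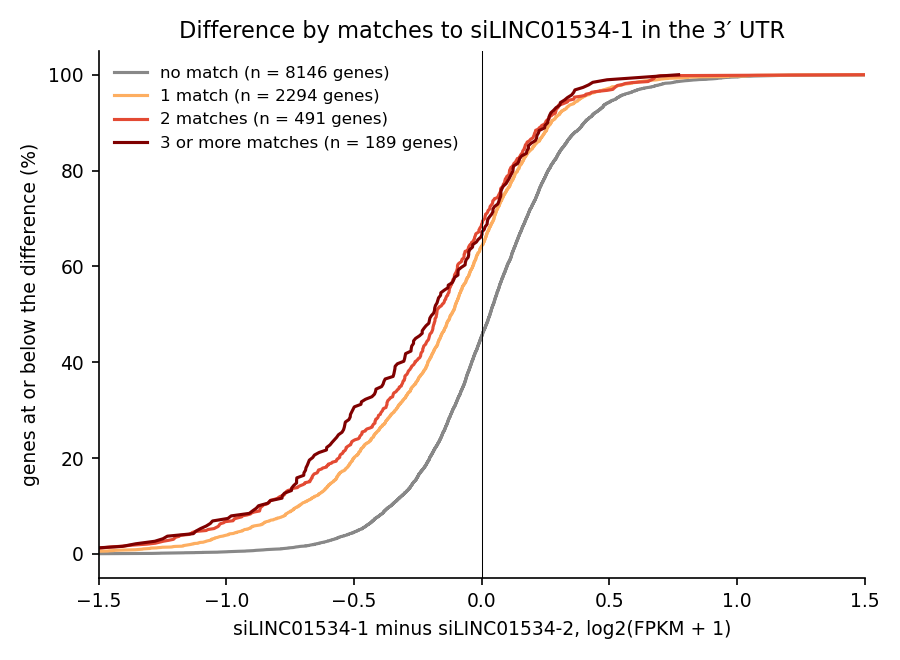
Share of genes at or below each log2 difference between the siRNAs, by the number of siLINC01534-1 seed matches in the 3′ UTR (8146, 2294, 491 and 189 genes). The curves of genes with 1, 2, and 3 or more matches lie to the left of that of genes with none, toward lower values with siLINC01534-1. The axis is limited to 1.5 on either side of 0, so that genes beyond it are not drawn.

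Because GAATAAA holds the polyadenylation signal, the place of the match was examined. AATAAA was within the last 50 bases of the transcript in 7036 genes. Of these, 4832 had no GAATAAA in the 3′ UTR, and their median difference was 0.03, the same as for the 1794 genes without any AATAAA in the 3′ UTR. The 2204 genes with AATAAA in the last 50 bases and a GAATAAA in the 3′ UTR had a median of -0.15. In genes with 1 match, the median was -0.18 where the match lay under 50 bases from the transcript end (748 genes), -0.13 from 50 to under 500 bases (426 genes), -0.09 from 500 to under 2000 bases (687 genes) and -0.08 at 2000 bases or more (433 genes). The median with the match was also lower in shorter 3′ UTRs. Among 3′ UTRs of up to 585 bases it was -0.37 in 336 genes with the match and 0.01 in 2444 without it. Among those of over 2884 bases it was -0.06 in 1377 genes and 0.05 in 1400 genes. Distance and 3′ UTR length move together, and their parts were not separated.

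Pairing beyond the seed was counted over the 19 bases of the siRNA, at the best site of each gene. A gene with more matches has more sites to choose from, and the parts of pairing and number of matches were not separated. The median difference was -0.10 in 916 genes with 7 to 9 paired bases, -0.14 in 1835 genes with 10 to 12, -0.17 in 169 genes with 13 and -0.38 in 50 genes with 14 or more. Of the last 50 genes, 31 (62.0%) were lower and 1 was higher with siLINC01534-1. The 4 genes whose match ends at the last base of the transcript have no site of full length and are not counted here.

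**Figure D4:**
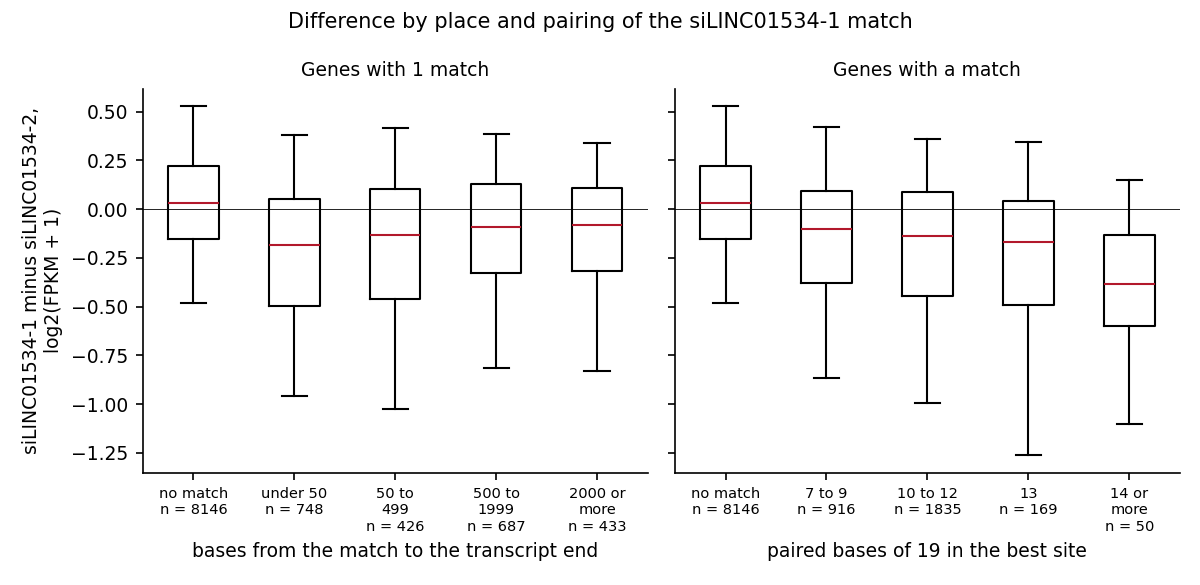
Log2 difference between the siRNAs in genes with 1 match by the distance from the match to the transcript end (left), and in genes with a match by the paired bases of the best site (right), beside the 8146 genes without a match. Red lines are medians, boxes quartiles, and whiskers the 5th and 95th percentiles of genes. Medians go from -0.18 under 50 bases to -0.08 at 2000 bases or more on the left, and from -0.10 to -0.38 with more pairing on the right.

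Of the 12 genes with the largest decreases, 10 held GAATAAA in the 3′ UTR, and TOB1 and PARL did not. Sites of RTN4, MYBL2, AMZ2 and RPL22 are shown from the genes with the largest decreases, that of HSPD1 for its high level, and that of COL1A1, a collagen gene, because its pairing was the longest after RTN4 among the genes named here while its difference was positive. They are given in DNA letters of the mRNA strand of GRCh37, with the match in capitals. They may be read against the site of siLINC01534-1 in LINC01534 given first.
LINC01534 (chr19:37177640-37177658, minus strand): atcgagtggtgGAATAAAa
RTN4 (chr2:55200019-55200037, minus strand): aggcactggtgGAATAAAa
COL1A1 (chr17:48261481-48261499, minus strand): tttgattgctgGAATAAAg
RPL22 (chr1:6246689-6246707, minus strand): tatgagttcttGAATAAAa
MYBL2 (chr20:42345091-42345109, plus strand): tttttttggaaGAATAAAa
HSPD1 (chr2:198351545-198351563, minus strand): tttgtatttttGAATAAAa
AMZ2 (chr17:66253176-66253194, plus strand): atacttcattgGAATAAAc
The site of RTN4 shares 15 of 19 bases with the site in LINC01534, 13 of them in 1 unbroken run, and RTN4 was the gene with the largest decrease. The site of COL1A1 shares 14 bases, and COL1A1 was higher with siLINC01534-1 (log2 difference 0.36, adjusted p = 0.024). That call was lost without the filter on low values (adjusted p = 0.051), without the first siLINC01534-1 library (0.29, adjusted p = 0.10) and without the second siLINC01534-2 library (0.30, adjusted p = 0.098). The sites of RPL22, MYBL2, HSPD1 and AMZ2 share 13, 12, 12 and 11 bases. MYBL2 holds its match 27 bases from the transcript end, where AATAAA is found in most genes, while that of RTN4 lies 695 bases away. Of the 12 genes with the largest positive differences, ZC3H13, HEBP2 and ACO1 held GAATAAA too. Their log2 values from parent cells were -0.20, 0.19 and 0.11 with siLINC01534-1, and -1.85, -1.32 and -1.11 with siLINC01534-2. For siLINC01534-2, the named genes with TTCGAGT and the largest positive differences were ITPRIPL2 (log2 difference 1.14), PPP3CB (0.70), a catalytic subunit of calcineurin, and TXNL1 (0.67), a thioredoxin-like protein. From parent cells these 3 genes were at 0.83, 0.34 and 0.45 with siLINC01534-1, and at -0.31, -0.35 and -0.22 with siLINC01534-2. TXNL1 also held 2 matches of siLINC01534-1. CDK1 held TTCGAGT too and was lower with siLINC01534-1 (log2 difference -0.71).

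Genes were then followed in hand-written lists by function. Counts and medians describe the lists, beside 19.7% of all genes higher, 22.6% lower and a median difference of 6e-04. Counts of 3 or fewer genes in a list moved by at most 2 genes when a library was left out.

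The genes of mitosis were the widest group of lower genes with siLINC01534-1. Of 15 genes of the switch into mitosis, 11 were lower and 1, CDC25A, was higher with siLINC01534-1, with a median of -0.40. The decreases were led by MYBL2, GTSE1 (-1.30) and CCNA2 (-1.25), which encodes cyclin A. CDK1, the kinase of mitotic entry, was at 38.4 and 46.4 with siLINC01534-1 and 71.8 and 67.7 with siLINC01534-2, and its partner CCNB1 at 87.1 and 92.8 against 143 and 138. Both were lower with siLINC01534-1, with log2 differences of -0.71 (SE 0.09) and -0.64 (SE 0.044), and in parent cells they were at 86.0 and 84.0 and at 169 and 164. PLK1 was also lower (-0.40). Of the CDC25 phosphatases, which activate cyclin-dependent kinases, CDC25A was higher (0.39, adjusted p = 0.0063). CDC25B, with -0.02 (95% interval -0.11 to 0.07), and CDC25C, with -0.22 (adjusted p = 0.077), did not pass the threshold. Of 45 spindle, kinetochore and cytokinesis genes, 35 were lower and 2 higher, with a median of -0.41, led by PRR11 (-1.62), SGOL2 (-1.26), which protects centromeric cohesion, and NDC80 (-1.03), a kinetochore subunit. Of 41 DNA replication genes, 22 were lower and 2 higher, with a median of -0.16, led by MCM10 (-0.95), DBF4 (-0.93) and GINS1 (-0.86), which act when origins fire.

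The seed match GAATAAA was in 3 of the 15 genes of mitotic entry (20%) and in 10 of the 45 spindle genes (22.2%). It was in 13 of the 40 replication genes with a 3′ UTR (32.5%), beside 26.7% of all genes with a 3′ UTR. The median of the spindle genes was -0.68 with it and -0.35 in the 35 genes without it, of which 26 were lower. For replication genes the medians were -0.47 and -0.03, and 11 of the 22 lower genes held it, beside 44.3% of all lower genes with a 3′ UTR. The median from parent cells was -0.68 with siLINC01534-1 and -0.29 with siLINC01534-2 for spindle genes, and -0.41 and -0.30 for replication genes. Shares of cells in each phase of the cell cycle and RNA per cell cannot be told apart in these bulk samples.

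Cholesterol synthesis genes were lower with siLINC01534-1, 18 of 24 measured, and 1 was higher. Their median was -0.45, and the medians from parent cells were -0.45 with siLINC01534-1 and 0.05 with siLINC01534-2. MSMO1, a sterol methyl oxidase, was at 20.1 and 18.6 with siLINC01534-1, 47.6 and 50.6 with siLINC01534-2 and 38.7 and 36.1 in parent cells, so the siRNAs lay on either side of parent (log2 difference -1.30, SE 0.061). HMGCS1, which makes HMG-CoA, lay likewise, at 20.9 and 20.6 with siLINC01534-1, 43.6 and 46.4 with siLINC01534-2 and 33.5 and 31.8 in parent cells. SC5D, a sterol desaturase, was lower by -1.12 (SE 0.089), and SQLE, the squalene epoxidase, by -0.44 (SE 0.04). Of the 18 lower genes, 9 held GAATAAA and 9 did not, beside 44.3% with it among all lower genes with a 3′ UTR. The medians of the list with and without GAATAAA were -0.73 and -0.32. In fatty acid synthesis, 5 of 12 genes were lower and 2 higher, led by SCD (-0.64), the stearoyl-CoA desaturase.

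Heat shock genes were lower too, 14 of 19 with a median of -0.19, while HSPB1 (0.17) was higher. HSPD1, the mitochondrial chaperonin kept in this list of mainly cytosolic chaperones, was at 299 and 298 with siLINC01534-1, 879 and 862 with siLINC01534-2, and 1100 and 1060 in parent cells (log2 difference -1.54, SE 0.032). DNAJA1, a cochaperone of HSP70, was at 152 and 148 with siLINC01534-1 against 326 and 332 with siLINC01534-2. Both genes and DNAJB4 (-0.77) were among the 4 members that held GAATAAA, and the 15 without it had a median of -0.17. The 14 lower genes became 8 without the first siLINC01534-1 library, 7 without the first siLINC01534-2 library and 9 after quantile normalization. HSPD1 has pseudogenes close to it in sequence, among which reads may have been divided.

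Proteasome genes went the other way. Of 36 subunit and activator genes, 26 were higher and 4 lower with siLINC01534-1, with a median of 0.35. The medians from parent cells were 0.27 with siLINC01534-1 and -0.09 with siLINC01534-2. PSMD13, of the regulatory particle, was at 185 and 186 with siLINC01534-1, 113 and 105 with siLINC01534-2, and 134 and 131 in parent cells, with the siRNAs on either side of parent (log2 difference 0.76, SE 0.045). PSMC4, an ATPase of the same particle, was at 166 and 172 with siLINC01534-1 and 110 and 99.0 with siLINC01534-2. The 4 lower genes, PSMD5 (-1.05), PSMC6 (-0.66), PSMA7 (-0.63) and PSMA4 (-0.41), were all among the 7 that held GAATAAA, and the 29 genes without it had a median of 0.42.

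Among genes of the ER stress response, some passed the threshold between the siRNAs and others did not. HSPA5, the ER chaperone BiP, was at 740 and 724 with siLINC01534-1 and 695 and 757 with siLINC01534-2, against 255 and 254 in parent cells. The siRNA libraries overlapped, and the difference was 0.01 (95% interval -0.11 to 0.13). For DDIT3, which encodes CHOP, the difference was -0.16 (95% interval -0.37 to 0.04), for TRIB3 0.09 (-0.04 to 0.21), for CHAC1 -0.05 (-0.18 to 0.09), and for HERPUD1, an ER-associated degradation gene, 0.01 (-0.16 to 0.19). The sensors PERK (EIF2AK3, 0.12, interval -0.12 to 0.36), IRE1 (ERN1, -0.34, interval -0.75 to 0.07) and ATF6 (0.13, interval 0.01 to 0.24, adjusted p = 0.081) did not pass the threshold either.

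Other genes of these branches were apart. ATF4, the transcription factor downstream of PERK, was at 567 and 574 with siLINC01534-1 and 386 and 378 with siLINC01534-2, against 350 in both parent libraries, a log2 difference of 0.58 (SE 0.029, adjusted p = 0.00021). VEGFA (0.63), an angiogenic factor, was higher and ATF5 (-0.50) lower with siLINC01534-1, the latter with an adjusted p of 0.057 without the first siLINC01534-2 library. In the PERK and ATF4 list 8 of 21 genes were higher and 2 lower, with a median of 0.07. The 8 became 3 without either siLINC01534-1 library and 2 without the first siLINC01534-2 library. XBP1, the target of IRE1 splicing, was at 69.4 and 69.6 with siLINC01534-1 and 45 and 47.1 with siLINC01534-2, and DNAJB9, an ER cochaperone, at 35.5 and 37.7 against 18.1 and 18.9. Both were higher with siLINC01534-1, with log2 differences of 0.58 (SE 0.04) and 0.94 (SE 0.053), as were 10 of 24 genes of the IRE1 arm, translocon and ER-associated degradation, with 2 lower. Of 21 genes of the ATF6 arm and ER folding, 6 were higher and 5 lower. ERO1A, the oxidase of disulfide formation, was at 8.55 and 9.72 with siLINC01534-1 and 23.7 and 23.5 with siLINC01534-2, against 23.1 and 20.8 in parent cells, and DNAJB11, a cochaperone of BiP, at 50.8 and 52.5 against 105 and 110. Both, with log2 differences of -1.28 and -1.04, held GAATAAA, as did PDIA6 (-0.63) and HSPA13 (-0.74). HSPA13, however, was at 0.01 from parent cells with siLINC01534-1 and at 0.75 with siLINC01534-2. In the ATF6 list 6 genes held it, of which 3 were lower and 0 higher. In the IRE1 list 9 held it, of which 2 were lower and 2 higher (median -0.03), and in the PERK and ATF4 list all 3 that held it were higher (median 0.31).

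Amino acid and tRNA charging genes were mostly higher with siLINC01534-1. Of 15 amino acid and one-carbon synthesis genes, 8 were higher and 3 lower, with a median of 0.15, and the 8 became 5 without either siLINC01534-1 library. ASNS, the asparagine synthetase, was at 132 and 142 with siLINC01534-1 and 89.5 and 92.9 with siLINC01534-2, and CTH, which makes cysteine, at 9.12 and 9.16 against 4.92 and 4.60. GOT1, an aspartate aminotransferase, was lower (-0.87) and held GAATAAA. Of 20 tRNA synthetases, 12 were higher and 4 lower, with a median of 0.15. AARS, the alanyl-tRNA synthetase, was at 39.6 and 41.8 with siLINC01534-1, 100 and 99.9 with siLINC01534-2 and 77.9 and 80.3 in parent cells, and its difference of -1.28 (SE 0.04) was larger in size than those of the other 19. AARS held 2 matches.

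p53 and NRF2 target genes were more often higher than lower with siLINC01534-1. Of 25 p53 targets, 10 were higher and 2 lower, with a median of 0.12, and the 10 became 6 without the second siLINC01534-1 library. CDKN1A, the cell cycle inhibitor p21, was at 259 and 256 with siLINC01534-1, 169 and 178 with siLINC01534-2 and 132 and 135 in parent cells (log2 difference 0.57, SE 0.038), and BTG2 (0.59) and TP53INP1 (0.54) were higher as well. Of 19 NRF2 targets, 10 were higher and 3 lower, with a median of 0.14. HMOX1, heme oxygenase 1, was at 157 and 147 with siLINC01534-1, 92.7 and 104 with siLINC01534-2 and 19.7 and 21.0 in parent cells (0.62, SE 0.071). GCLM, of glutathione synthesis, was higher by 0.92, and AKR1B10 by 1.30 (SE 0.14). Among lysosome and autophagy genes, 8 of 27 were higher and 2 lower, led by GABARAPL1 (0.90) and CTSD (0.85), and the 8 became 4 without either siLINC01534-1 library and 5 without either siLINC01534-2 library.

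**Figure D5:**
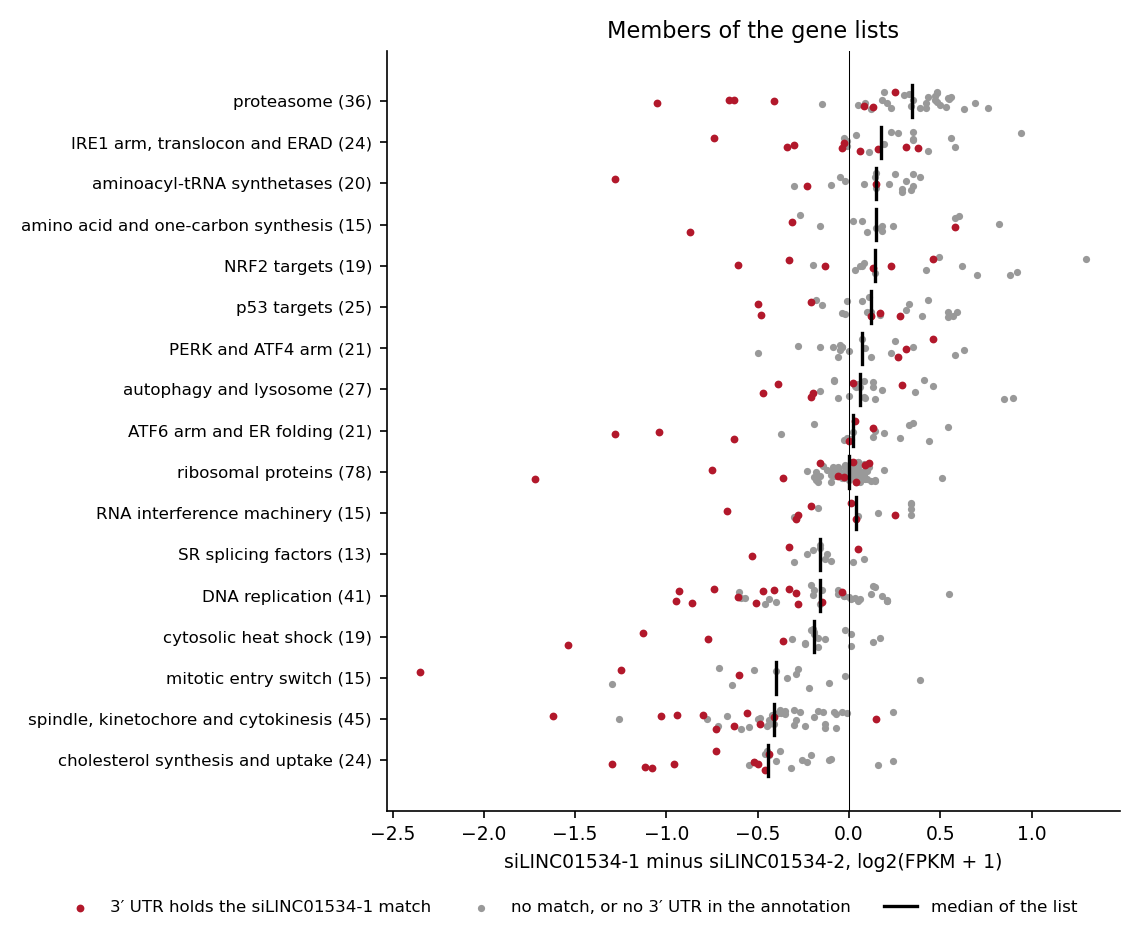
Log2 difference between the siRNAs of the measured members of 17 lists (number in brackets), 1 point per gene, with a bar at the median of the list. Red points mark genes with the siLINC01534-1 match in the 3′ UTR. Medians go from 0.35 for proteasome genes to -0.45 for cholesterol synthesis genes, and red points lie at the low end of many lists.

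Genes of the RNA interference machinery itself were split, with 5 of 15 higher and 5 lower. AGO2, the Argonaute that cleaves the target, was at 29.1 and 26.8 with siLINC01534-1 and 26.2 and 28.3 with siLINC01534-2, and the difference was 0.04 (95% interval -0.12 to 0.19). TARBP2, a partner of Dicer, was lower with siLINC01534-1 (-0.67), while TNRC6A (0.34), a silencing partner of Argonaute, and XPO5 (0.34), which exports microRNA precursors, were higher. The 5 lower genes became 1 or 2 without the first or second siLINC01534-1 library and 3 or 2 without those of siLINC01534-2, and the 5 higher became 3 without the second library of either. Of 13 SR splicing factors, 9 were lower, with a median of -0.16, led by SRSF8 (-0.53), SRSF10 (-0.33) and SRSF6 (-0.30). The 9 became 5 without the second siLINC01534-1 library, and 4 or 5 without the first or second siLINC01534-2 library. Of 78 ribosomal protein genes, 4 were higher and 9 lower with a median of 0, and next to RPL22 the largest were RPL10A (-0.75) and RPL24 (0.51). Leaving out any 1 of the siRNA libraries left 1 or 2 of the 4 and 3 to 5 of the 9, as did the fit without the low-value filter or without the trend, with 2 and 4 or 5. In the BTG and TOB family of antiproliferative genes, TOB1 was lower while BTG3 (0.79) and BTG2 were higher, of 5 measured. BTG3 was below parent cells with both siRNAs, by -0.81 with siLINC01534-1 and -1.59 with siLINC01534-2, and it held GAATAAA. BTG2 was above parent cells with both, by 1.02 and 0.43.

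Genes linked to inflammation went in both directions. The median was -0.08 for NF-kB feedback genes and chemokines, 0.06 for RNA sensors and interferon-stimulated genes and -0.05 for AP-1 and immediate early genes. The median of 0.06 changed sign under 2 of the alternatives. IER3, an early stress gene, was at 263 and 271 with siLINC01534-1 and 422 and 432 with siLINC01534-2, against 256 and 266 in parent cells (-0.68, SE 0.036). CXCL8, the chemokine interleukin 8, was at 17.2 and 17.1 with siLINC01534-1 and 18.9 and 21.9 with siLINC01534-2, against 1.12 and 1.39 in parent cells, and the siRNAs did not differ by the test (-0.23, adjusted p = 0.097). Of 13 NF-kB feedback genes and chemokines, 2 were higher and 4 lower. Of 20 RNA sensors and interferon-stimulated genes, 2 were higher and 7 lower, with USP18 (-1.04), IFI6 (-0.79) and IRF7 (-0.78) the largest. GAATAAA was in 4 of the 7 lower genes, USP18 and IFI6 among them, beside 44.3% of all lower genes with a 3′ UTR. The medians of this list with and without it were -0.37 and 0.10. The call of IRF7 was lost without any 1 of the siRNA libraries (adjusted p = 0.066 to 0.11), and that of IFI6 without the first siLINC01534-1 library or any 1 of the siLINC01534-2 and parent libraries (0.07 to 0.19). The 7 became 3 or 4 without any 1 of the siRNA libraries, and the 4 NF-kB genes became 2 without either siLINC01534-1 library or the second siLINC01534-2 library, or with a mean FPKM of at least 5. Of 19 AP-1 and immediate early genes, 2 were higher and 6 lower, with DUSP6 (-0.84) and FOSL2 (-0.80), a Fos family protein, the lowest and JUND (0.67) the highest. GAATAAA was in 3 of these 6 lower genes, DUSP6 and FOSL2 among them, and in 0 of the 4 lower NF-kB genes. From parent cells DUSP6 was at -1.03 with siLINC01534-1 and -0.19 with siLINC01534-2, and FOSL2 at 0.10 and 0.90.

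The share of members that differed went from 12.5% of stem and differentiation markers to 66.7% of epithelial markers in the lists that follow. Among all genes it was 42.3%. Among stem and differentiation markers, 1 of 8 measured genes, CA2, was lower (-1.03). CD44 was at 124 and 127 with siLINC01534-1 and 131 and 130 with siLINC01534-2 (-0.05, 95% interval -0.13 to 0.02), and PROM1, which encodes CD133, differed by -0.20 (-0.36 to -0.04, adjusted p = 0.051). BMI1 (-0.30) and CDX2 (-0.11) had overlapping libraries, and DCLK1 and LGR5 were below the FPKM minimum. Of 25 hypoxia and glycolysis genes, 7 were higher and 5 lower, with EGLN3 (-0.75) and PFKM (0.49) the largest. The 7 became 4 without the second siLINC01534-1 or first siLINC01534-2 library, and the 5 became 3 without the first library of either. Of 12 BCL2 family and death receptor genes, 2 were higher and 1 lower, with TNFRSF10B (0.40), the TRAIL receptor DR5, the largest. Of 7 EGF receptors and ligands, 1 was higher, EREG (0.32), and 2 lower, TGFA (-0.65) and ERBB3 (-0.51). Of 10 YAP and TEAD targets, 2 were higher, led by CYR61 (0.60), and 3 lower, led by F3 (-0.58). The epithelial markers CDH1 (-0.48), CLDN7 (-0.48), KRT19 (-0.39) and KRT8 (-0.27), 4 of 6 measured, were lower with siLINC01534-1, KRT8 with an adjusted p of 0.057 or 0.06 without the first or second siLINC01534-1 library, and EPCAM was not (0.00, interval -0.07 to 0.08).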

How the data were processed

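Poly(A) RNA of HCT116 cells was sequenced in 75-base single-end reads from stranded libraries, 2 per group. The authors mapped the reads to hg19 (TopHat 2.0.13, Bowtie2 2.2.3, SAMtools 0.1.19) and deposited the FPKM that Cuffnorm 2.2.1 gave per gene symbol. The annotation, and whether counting used the strand, are not given in the sources used here. The labels and the methods name different RNA extraction kits, and the methods give triplicate cultures where the labels give 2 libraries.

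The deposited FPKM were taken as log2(FPKM + 1), which understates differences of low genes. Genes whose FPKM averaged 1 or more were fitted with limma 3.58.1 in R 4.3.3 (1 mean per group over 6 libraries, eBayes with a trend), two-sided, with Benjamini-Hochberg adjustment over 12203 genes and a threshold of 0.05. Differences over 1.5-fold were tested with treat. Symbols starting with MIR, SNORD, SNORA, SCARNA or RNU were then set aside (226 genes, of which 24 passed the threshold). The fit was tested on simulated data. No counts are given, and depth was estimated from 269 genes with 1 transcript, taking 200 bases off each transcript for the fragment length. Of 3284 low genes, 75.7% were in whole steps within 0.03 of their number of reads. Intervals (95%) cover the spread between libraries.

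Seed matches were sought with Python 3.11.15, pandas 2.3.3 and numpy 2.4.6 in 3′ UTRs of GENCODE v44 on GRCh37, the build of hg19, with older symbols matched through RefSeq synonyms. Genes named are the 12 largest differences in each direction (adjusted p under 0.05, mean FPKM of at least 5, libraries not overlapping), up to 3 per list, the 8 largest with a seed match per siRNA and genes fixed by name. Members singled out beyond these (CDC25A, HSPB1, PSMC6, PSMA7 and PSMA4) were chosen after their values were seen. The comparison, the lists and the tests were chosen with earlier results of these data known. Alternatives were other pseudocounts, filters, scalings, a replicate block and leaving out each library. Some genes of the lists are not reported here by name. The comparison of genes with and without AATAAA was added after the values were seen.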

Additional observations from a re-analysis of the deposited data

Results flagged for a closer look

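Of the 11977 genes, 259 passed the threshold against parent cells with both siRNAs but in opposite directions. In 116 of them siLINC01534-1 was above parent cells and in 143 below. Such genes necessarily differ between the siRNAs in the same fit, so that call adds nothing. They are a different set from the 259 genes called beyond 1.5-fold, with 61 genes in both sets. Parent cells are the control of both differences from parent. Among the named genes, those below parent cells with siLINC01534-1 and above with siLINC01534-2 had log2 differences between the siRNAs of -1.75 for DAZAP2, -1.72 for COMMD7, -1.30 for MSMO1, -1.28 for AARS, -1.08 for HMGCS1, -1.04 for DNAJB11, -0.77 for DNAJB4, -0.75 for RPL10A, -0.63 for PDIA6, -0.48 for CLDN7, -0.44 for SQLE and -0.39 for KRT19. COMMD7, for example, stood at -1.25 from parent cells with siLINC01534-1 and at 0.47 with siLINC01534-2, and DNAJB11 at -0.47 and 0.57. Those above parent cells with siLINC01534-1 and below with siLINC01534-2 had differences of 1.75 for PCYOX1L, 1.52 for HEBP2, 1.26 for KLHDC3, 1.14 for ITPRIPL2, 0.88 for ABCC2, 0.76 for PSMD13, 0.70 for PPP3CB, 0.67 for TXNL1 and 0.49 for AHCYL1. PCYOX1L stood at 0.53 and -1.22 from parent cells.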

How the results depend on the processing

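Of the 5072 genes called, 0 were called in the opposite direction under any alternative, and the count lay between 4403 and 5555 where no library was left out. With each library left out in turn it was 3165 to 4493, with 1299 to 2090 higher and 1845 to 2409 lower. The test beyond 1.5-fold then gave 108 to 168 genes, 13 to 35 higher and 91 to 133 lower. With only the 4 siRNA libraries in the fit it gave 159 genes, 33 higher and 126 lower, and without a filter on low values 39 were higher. A lone library left in a group is assumed to vary like the other groups. Replicate numbers did not pair the libraries (correlations of deviations 0.107, -0.064 and -0.005), and with the replicate block 4415 genes differed, 188 by more than 1.5-fold. The median difference of genes with GAATAAA less that of genes without it was -0.165. It was -0.184 and -0.176 with pseudocounts of 0.1 and 0.5, -0.182 with a mean FPKM of at least 5, -0.172 after quantile normalization, -0.070 without the filter, and -0.167 to -0.157 with a library left out. For TTCGAGT it was -0.026, -0.008 without the filter and -0.027 to -0.006 with a library left out. The cause of these changes was not tested. Scaling moved the median of all genes by at most 0.023. The depth of 8670000 to 10400000 reads leaves genes at the level of LINC01534 with a few reads per library, for which differences could not be seen.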
